A study of Homo sapiens with 6 samples.

Results

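The genes described here are 9 regulators of apoptosis whose transcripts are known to be spliced into forms with different activities: the receptor gene FAS, the BCL2 family genes BAX, BCL2L11, BCL2L1 and MCL1, the caspase genes CASP2 and CASP9, and BIRC5 and DIABLO, whose products restrain caspases or lift that restraint. Their exons and introns were taken by gene symbol from tables of retained introns and skipped exons, and kept where inclusion and skipping junction reads together averaged at least 20 per library. Of 15 retained intron events of these genes 13 met this minimum, and of 93 skipped exon events 61 did, out of 21158 and 153168 events in the whole tables. RNA came from HEK293A-TOA, a line derived from human embryonic kidney, 5 days after transfection. The siSFSWAP cells (3 libraries) were given 40 nM of 2 mixed siRNAs that target SFSWAP, and the siNT cells (3 libraries) a non-target siRNA, and neither received any other treatment. SFSWAP is a nuclear splicing regulator, and the study asked how its loss changes splicing; because the labels describe a mixture, values for each siRNA alone were not analysed here, and the study calls one of its SFSWAP siRNAs not effective in a protein blot.

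Apoptosis runs along a pair of connected routes. Death receptors such as FAS recruit and activate caspases at the cell surface, while BCL2 family proteins decide whether the outer membrane of mitochondria is opened, which releases proteins such as DIABLO and leads to activation of CASP9. Many of these genes make a second product by including or skipping an exon, and that product can lack a membrane anchor, a BCL2 homology region or part of an enzyme, so that the balance of forms is a known point of control in cell death.

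Inclusion is the share of transcripts that keep an exon or intron, computed from the inclusion and skipping junction reads of a library after dividing each by its effective length. An event was tested when, beside the read minimum, the 6 libraries together held 5 or more reads of each form and 2 or more libraries per group had any reads. It was called when the adjusted p of a quasi-binomial test was at most 0.05 and the mean inclusion changed by at least 20 percentage points. All changes are siSFSWAP minus siNT, and errors are SD with n = 3 libraries unless stated otherwise. Libraries are named a, b and c by their place in each list of the tables, which pairs no siSFSWAP library with a siNT library.

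Of the 9 genes, 11 introns in 5 genes and 42 exon events in 8 genes could be tested, and a single event in each table was called. Both called events were lower in siSFSWAP: exon 6 of FAS and intron 5 of BAX. Among all tested introns 1.61% were called lower, and 1 of the 11 introns here was (9.09%). The 11 include overlapping versions of an intron in BAX and in FAS, so they are not independent. Among all tested exon events 0.655% were called lower and 1.44% higher, and here 1 of 42 was called lower (2.38%) and 0 higher. At an unadjusted p under 0.05, 8 of the 42 were higher in the quasi-binomial test and 2 with limma on log2 odds, which called 0 higher. Several of the 8 are BAX events that rest on the same skipping reads. The share of all tested exon events at that unadjusted p was not computed. By the adjusted p alone, 3 of the 42 exon events were lower, where 2.17% of all tested exon events were, and 2 were higher, where 3.25% of all were. These 5 events lay in FAS, MCL1 and CASP2. Of all 42 exon events 33 moved by less than 5 points.

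The sequences below are those of the exons and of the intron ends on which the results turn, on the strand of the gene, from the GRCh38 genome. For each exon, the exon is in capitals, with the last 20 bases of the intron before it and the first 8 bases of the intron after it in lower case. For BAX intron 5, the capitals are the first 20 and the last 40 bases of the intron, and the 10 bases of exon on each side are in lower case.
FAS exon 6: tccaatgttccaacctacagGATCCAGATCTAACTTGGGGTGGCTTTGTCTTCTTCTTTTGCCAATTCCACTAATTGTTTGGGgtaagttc
BAX intron 5, 5′ end: gggtggttggGTGAGACTCCTCAAGCCTCC
BAX intron 5, 3′ end: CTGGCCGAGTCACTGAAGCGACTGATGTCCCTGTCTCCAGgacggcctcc
MCL1 exon 2: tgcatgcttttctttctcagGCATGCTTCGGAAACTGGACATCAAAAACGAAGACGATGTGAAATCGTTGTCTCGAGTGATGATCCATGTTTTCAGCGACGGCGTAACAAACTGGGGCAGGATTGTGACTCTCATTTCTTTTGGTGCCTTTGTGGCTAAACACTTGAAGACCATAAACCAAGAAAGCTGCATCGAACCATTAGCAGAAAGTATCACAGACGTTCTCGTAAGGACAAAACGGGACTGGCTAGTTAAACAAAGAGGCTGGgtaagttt
CASP2 61-base exon: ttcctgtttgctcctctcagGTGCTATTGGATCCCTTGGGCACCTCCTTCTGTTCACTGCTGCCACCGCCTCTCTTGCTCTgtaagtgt
CASP2 149-base exon: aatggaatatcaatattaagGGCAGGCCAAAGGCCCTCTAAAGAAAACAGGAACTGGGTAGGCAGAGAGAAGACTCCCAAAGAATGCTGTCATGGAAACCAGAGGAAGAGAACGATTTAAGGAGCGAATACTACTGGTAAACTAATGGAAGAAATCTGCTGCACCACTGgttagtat

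FAS encodes a death receptor of the tumor necrosis factor receptor family, and its exon 6 encodes the stretch that spans the plasma membrane, so that transcripts skipping it are known to give a soluble receptor. Exon 6 of 9 lies within the coding region at chr10:89010753-89010815. It is 63 bases long, which is 21 codons, so skipping keeps the reading frame and shortens the encoded protein to 314 residues, against 335 with the exon. Inclusion was 49.5%, 46.1% and 49.4% in the siSFSWAP libraries, against 74.5%, 78.6% and 67.7% in the siNT libraries. The groups did not overlap, and the siSFSWAP libraries lay within a few points of each other. The reads that joined exon 6 numbered 53, 14 and 32 in siSFSWAP and 129, 30 and 24 in siNT. The reads that skipped it numbered 33, 10 and 20 in siSFSWAP and 27, 5 and 7 in siNT. Library siSFSWAP a thus held more skipping reads than siNT a, although siNT a was the deepest of all.

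FAS exon 6 inclusion averaged 48.4% ± 1.95 in siSFSWAP and 73.6% ± 5.50 in siNT, a change of −25.2 points (adjusted p 0.0124), and the 95% interval of the log2 odds ratio ran from −2.32 to −0.81. The counts are small: for siSFSWAP b, 14 of 24 junction reads allow an inclusion between 26.1% and 68.3%, and for siNT c, 24 of 31 allow 46.7% to 85.2% (95% Clopper-Pearson intervals, counting error only). Leaving out one library at a time kept the change between −28.2 and −22.7 points, but the adjusted p was at most 0.05 only without siNT b or siNT c and reached 0.0877 without siSFSWAP a. The introns on both sides of the exon did not pass the test, and their counts are small. In siSFSWAP b, intron 5 had 4 reads across its exon-intron borders and 7 spliced reads, and intron 6 had 2 and 11. The 95% interval of the log2 odds ratio ran from −0.52 to 1.93 for intron 5 and from −0.97 to 2.78 for intron 6. Intron 5 (152 bases) was retained at 8.43%, 22.2% and 20% in siSFSWAP and 7.43%, 7.32% and 18.8% in siNT (adjusted p 0.667), and intron 6 (1183 bases) at 5.62%, 8.33% and 0% in siSFSWAP and 2.56%, 2.56% and 0% in siNT (adjusted p 0.728). Exon 3 of FAS was included at 100% in all siSFSWAP libraries and at 90.6%, 89.5% and 100% in siNT (adjusted p 0.243). Of the other 2 FAS exons that met the read minimum, exons 4 and 8, neither had enough skipping reads for a test, and all their values were 93.7% or higher.

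**Figure D1:**
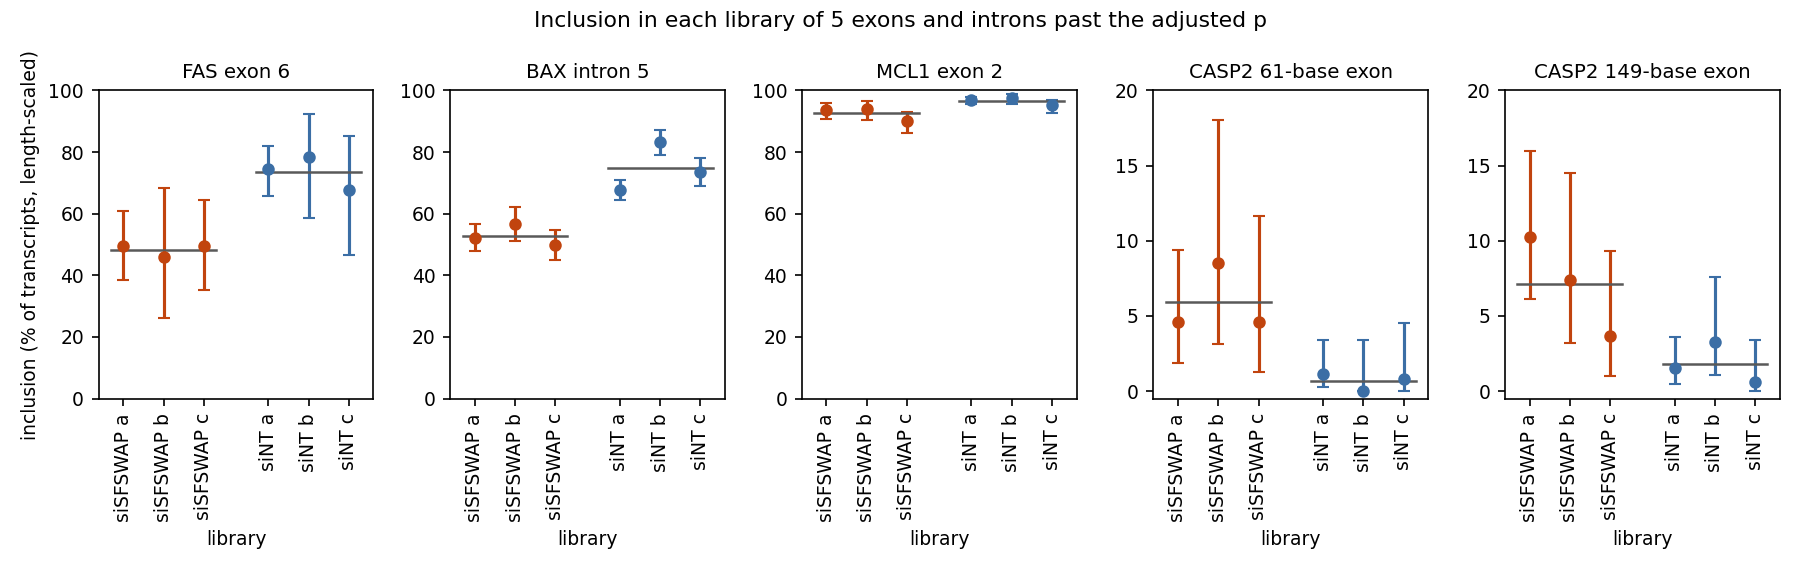
Inclusion (percent) of FAS exon 6, BAX intron 5, MCL1 exon 2 and 2 CASP2 exons in the 3 siSFSWAP (orange) and 3 siNT (blue) libraries; points are libraries, bars 95% Clopper-Pearson intervals of the counts and grey lines group means, and the CASP2 panels end at 20%. In each panel the points of the groups do not overlap, with FAS exon 6 between 46.1% and 49.5% in siSFSWAP and between 67.7% and 78.6% in siNT.

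BAX encodes a BCL2 family protein that permeabilizes the outer membrane of mitochondria, and its last exon encodes the hydrophobic C-terminus that anchors the protein there. The form that keeps intron 5, known as BAX-beta, ends within the intron. Intron 5 of 5 lies at chr19:48960915-48961531 and is 617 bases long, and in the reference sequence an in-frame stop codon follows after 180 intronic bases, so that the encoded protein has 218 residues, against 192 when the intron is removed. It was retained at 52.2%, 56.7% and 49.8% in the siSFSWAP libraries, against 67.8%, 83.4% and 73.7% in the siNT libraries. The groups did not overlap, and siNT a was the lowest of its group. Reads across the exon-intron borders numbered 421, 301 and 313 in siSFSWAP and 903, 493 and 482 in siNT. Reads across the spliced junction numbered 193, 115 and 158 in siSFSWAP and 214, 49 and 86 in siNT, so siSFSWAP had the more spliced reads in comparison with siNT b and c, and the fewer border reads in comparison with every siNT library.

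BAX intron 5 inclusion averaged 52.9% ± 3.52 in siSFSWAP and 74.99% ± 7.87 in siNT, a change of −22.1 points (adjusted p 0.00504), with a 95% interval of the log2 odds ratio from −1.70 to −0.85. It was the only one of the 11 tested introns whose groups did not overlap, where 21.3% of all tested introns did not. Some of the 11 are versions of this same intron. The call was lost without siSFSWAP a (adjusted p 0.0839) or siSFSWAP c, and without siNT b the change was −17.9 points. The deposited reads come from polyadenylated RNA and do not separate a retained intron in a finished transcript from one in a transcript still being spliced. A row for a 3′ splice site 49 bases upstream in the same intron counted 17, 7 and 15 spliced reads in siSFSWAP and 33, 8 and 8 in siNT, and its intron changed by −7.16 points (adjusted p 0.481). Intron 2 of BAX (87 bases) was retained at 14.7%, 22.3% and 15.4% in siSFSWAP and 14.0%, 18.2% and 24.7% in siNT (adjusted p 0.996).

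BAX exons 2, 3 and 4 are also known to be skipped in minor forms. Exon 3 (147 bases, 49 codons), read against transcripts in which exon 1 joins exon 4, was included at 99.1%, 97.5% and 98.2% in siSFSWAP and 96.5%, 95.1% and 93.4% in siNT, a change of 3.27 points that did not pass the test (adjusted p 0.125). Exon 2 (52 bases) was read against the same transcripts in a row where both forms skip exon 3. There exon 2 was included at 81.4%, 59.1% and 71.1% in siSFSWAP and 53.6%, 53.1% and 48.4% in siNT. The change was 18.8 points (adjusted p 0.237). Both values rest on the same reads that join exon 1 to exon 4 and skip exons 2 and 3, namely 3, 5 and 4 reads in siSFSWAP and 21, 11 and 14 in siNT, and so do 3 further rows for longer versions of these exons. With siNT a left out this exon 3 value passed (adjusted p 0.0201). Read against transcripts that skip exon 3 alone, exon 3 was included at 97.0%, 99.6% and 97.2% in siSFSWAP and 98.1%, 97.1% and 95.6% in siNT, and the groups overlapped (adjusted p 0.892). Read against transcripts that skip exon 2 alone, exon 2 was included at 92.2%, 98.7% and 94.3% in siSFSWAP and 96.2%, 96.0% and 92.6% in siNT (adjusted p 0.852). Exon 4 was included at 100% in all libraries but one, siNT b at 99.4%, and was not tested.

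MCL1 encodes a short-lived survival protein of the BCL2 family, and skipping of its exon 2 is known to give a short form that lacks the membrane anchor and promotes death. Exon 2 of 3 lies at chr1:150578244-150578491 on the minus strand. Its 248 bases are not a whole number of codons, and the form without it encodes 271 residues, against 350 with it. The exon was included at 93.6%, 94.0% and 90.03% in siSFSWAP and 97.0%, 97.6% and 95.2% in siNT, so that the groups did not overlap and the skipping form was the minor one in every library. Skipping reads numbered 25, 15 and 31 in siSFSWAP and 28, 10 and 19 in siNT, beside 737, 474 and 560 inclusion reads in siSFSWAP and 1814, 813 and 751 in siNT. Inclusion averaged 92.6% ± 2.21 in siSFSWAP and 96.6% ± 1.26 in siNT. The change of −4.02 points passed the adjusted p of 0.05 (0.0415) and not the threshold of 20 points. Rows for 2 other lengths of this exon, 272 and 99 bases and neither in the annotation used, changed by −7.58 points (adjusted p 0.0475) and −7.37 points (adjusted p 0.0505), and they share the skipping reads. Leaving out one library at a time kept the exon 2 change between −4.76 and −2.75 points, with an adjusted p of at most 0.05 only without siNT a or siNT c and up to 0.282 otherwise. It also did not pass with no filter on low counts (adjusted p 0.184) or with limma on log2 odds (adjusted p 0.388).

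CASP2 encodes an initiator caspase, and inclusion of a 61-base exon between exons 8 and 9 of the standard transcript is known to give a short form that protects cells. This exon lies at chr7:143300380-143300440. It shifts the reading frame, and with it the open reading frame of the standard start codon ends after 343 residues, against 452 without it. Inclusion was 4.59%, 8.49% and 4.63% in siSFSWAP and 1.16%, 0% and 0.818% in siNT. The groups did not overlap, but the exon rests on 7, 6 and 4 inclusion reads in siSFSWAP and 3, 0 and 1 in siNT, and 0 of 67 junction reads in siNT b allow a share of reads of up to 4.48%. The mean was 5.90% ± 2.24 in siSFSWAP and 0.660% ± 0.597 in siNT, a change of 5.24 points (adjusted p 0.0432). With one library left out the adjusted p was at most 0.05 only without siNT a, and otherwise reached 0.175. The exon also did not pass with no filter (adjusted p 0.171) or with limma on log2 odds (adjusted p 0.0563).

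A second CASP2 exon, of 149 bases at chr7:143289508-143289656 within intron 1, is not in the annotation used, and in the reference sequence it brings a stop codon after 57 residues. It was included at 10.3%, 7.41% and 3.64% in siSFSWAP and 1.54%, 3.27% and 0.606% in siNT, from 19, 8 and 4 inclusion reads in siSFSWAP and 5, 5 and 1 in siNT. The change was 5.30 points (adjusted p 0.0259), and again the groups did not overlap. The adjusted p was at most 0.05 in 3 of the 6 fits without one library and reached 0.281 without siSFSWAP a, and the exon did not pass with no filter (adjusted p 0.159) or with limma on log2 odds (adjusted p 0.122). Intron 8 of CASP2, which holds the 61-base exon, was retained at 2.17%, 13.04% and 4.67% in siSFSWAP and 2.77%, 1.47% and 0% in siNT (change 5.22 points, adjusted p 0.348, and 0.0174 without siNT a). Exon 4 (82 bases) and exon 10 (110 bases) of CASP2 stayed between 93.9% and 100% in every library (adjusted p 0.432 and 0.416), and an unannotated 124-base exon in intron 4 stayed at or below 1.78% (adjusted p 0.673).

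The exons printed above differ in the stretch before them. Of the 20 intronic bases before the exon, 16 were pyrimidines for the 61-base CASP2 exon, 15 for MCL1 exon 2, 12 for FAS exon 6 and 7 for the 149-base CASP2 exon. Among all tested exons the median was 13, 12.9% had 16 or more and 1.82% had 7 or fewer. Their GC content was 57.4% for the 61-base CASP2 exon, 45.2% for MCL1 exon 2, 42.9% for FAS exon 6 and 47.0% for the 149-base CASP2 exon, against a median of 50.4% over all tested exons. BAX intron 5 had 59.2% GC, against a median of 55.4% over all tested introns, and at 617 bases it was longer than their median of 161 bases. All 13 introns of these genes that met the read minimum began with GT and ended with AG. These are descriptions of the sequences and were not tested against the changes.

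**Figure D2:**
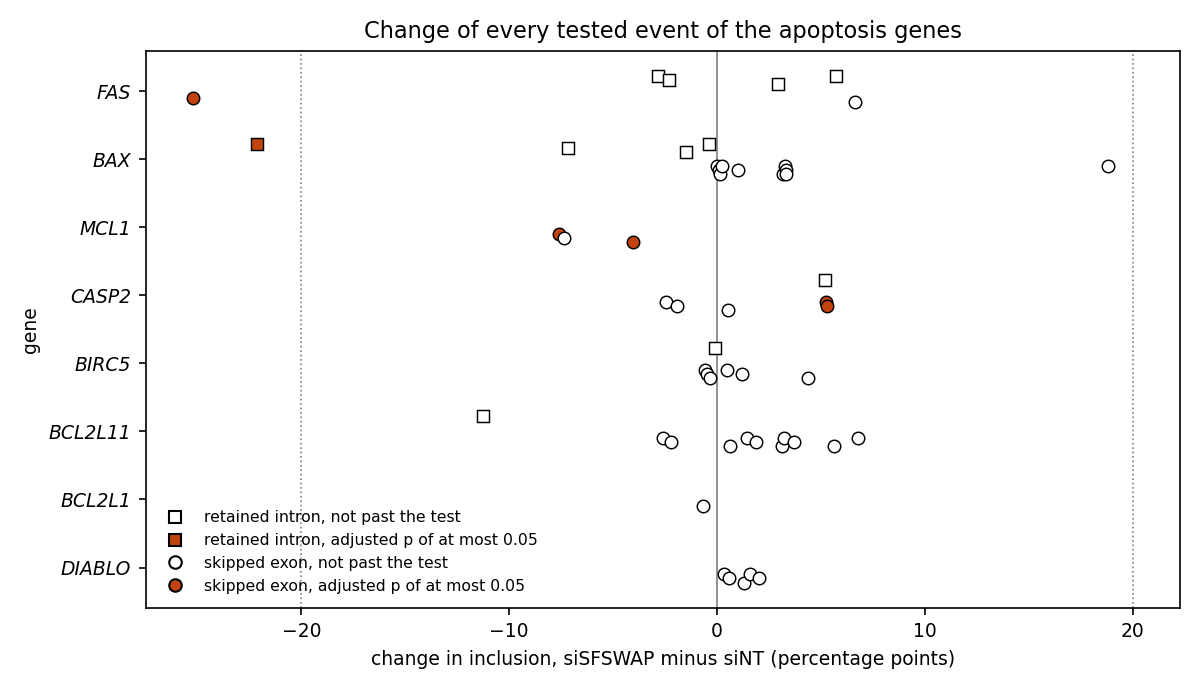
Change in inclusion (percentage points, siSFSWAP minus siNT, horizontal axis) of all 11 tested introns (squares) and 42 tested exon events (circles) by gene (vertical axis); filled symbols passed the adjusted p and the dotted lines mark 20 points. FAS exon 6 (−25.2 points) and BAX intron 5 (−22.1 points) are the only filled symbols beyond the lines, and most others lie close to 0.

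BIRC5 encodes survivin, which acts in cell division and restrains apoptosis, and its forms differ by skipping exon 3 or by including exon 2B, an extra exon in intron 2. Exon 3 (118 bases, chr17:78216664-78216781) was included at 85.7%, 83.1% and 83.2% in siSFSWAP and 84.3%, 75.4% and 79.1% in siNT. The ranges overlapped through siNT a, and the change of 4.39 points did not pass (adjusted p 0.381). The 95% interval of the log2 odds ratio ran from −0.07 to 0.72, and without siNT a the adjusted p was 0.00549, with a change of 6.76 points. Exon 2B (69 bases, 23 codons) was included at 5.93%, 4.02% and 2.41% in siSFSWAP and 3.31%, 2.49% and 5.07% in siNT (adjusted p 0.633, log2 odds interval −0.33 to 1.06). The 165-base exon in intron 3 that marks another form was included at 2.33%, 1.56% and 1.25% in siSFSWAP and 1.76%, 2.09% and 2.30% in siNT (adjusted p 0.889). The intron between exons 2B and 3 was retained at 8.43%, 20% and 47.8% in siSFSWAP and 32.6%, 27.8% and 16.3% in siNT, and the groups overlapped (adjusted p 0.622).

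BCL2L11 encodes BIM, a BH3-only protein that starts the mitochondrial route, and its extra-long, long and short forms differ in how the large exon 2 is spliced within itself. The inner intron (180 bases, 60 codons, chr2:111123870-111124049), which the extra-long form keeps, was retained at 61.3%, 47.6% and 40.2% in siSFSWAP and 56.0%, 65.5% and 61.4% in siNT. Library siSFSWAP a lay within the siNT range, and the means were 49.7% ± 10.7 in siSFSWAP and 60.97% ± 4.76 in siNT. The change of −11.3 points did not pass (adjusted p 0.515, log2 odds interval −1.35 to 0.17). The last 90 bases of exon 2, which the short form leaves out as well, were included at 79.2%, 79.2% and 88.5% in siSFSWAP and 77.8%, 88.9% and 70.5% in siNT, and the groups overlapped (adjusted p 0.796). Exon 3 (104 bases) was included at 89.5%, 90.9% and 79.6% in siSFSWAP and 88.6%, 87.5% and 79.6% in siNT (adjusted p 0.978). A 125-base exon between exons 3 and 4, found in transcripts annotated for nonsense-mediated decay, was included at 53.8%, 62.8% and 54.5% in siSFSWAP and 48.7%, 50% and 52.2% in siNT. These ranges did not overlap, yet the change of 6.78 points rests on 8 to 29 skipping reads a library and did not pass (adjusted p 0.677). A 33-base exon in intron 2, at chr2:111144488-111144520, was included at 0%, 4.48% and 9.38% in siSFSWAP and 2.29%, 2.16% and 0% in siNT, from 4 or fewer inclusion reads a library, and the groups overlapped (adjusted p 0.573).

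BCL2L1 encodes the survival protein BCL-xL and its short, death-promoting form BCL-xS, which arise from alternative 5′ splice sites of exon 2. Such sites are measured by neither table, so the balance of these forms is not analysed here. The single tested exon of BCL2L1, of 157 bases in intron 2, was included at 0.971%, 0% and 0.813% in siSFSWAP and 1.22%, 0.935% and 1.59% in siNT (adjusted p 0.755). In siSFSWAP b this is 0 inclusion reads beside 57 skipping reads. CASP9 encodes the caspase activated by the mitochondrial route, and its short form skips exons 3 to 6 together. Exons 7 and 8 of CASP9 met the read minimum and were included at 100% in siSFSWAP and at 88.9% or more in siNT, with too few skipping reads for a test. Exon 3 of CASP9 averaged 17 and 10.3 reads in its 2 rows, below the minimum, so the short form could not be judged at this depth.

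DIABLO encodes a mitochondrial protein that, once released, binds inhibitors of apoptosis and frees caspases. Its 132-base exon 3 (chr12:122218266-122218397, 44 codons), which a known short form skips, was included at 96.8%, 96.6% and 100% in siSFSWAP and 96.1%, 95.3% and 95.9% in siNT. The change of 2.02 points did not pass (adjusted p 0.684), and the exon had 3, 2 and 0 skipping reads in siSFSWAP and 8, 4 and 4 in siNT. Extra exons of 162 and 86 bases in intron 5 were included at 3.65% to 9.09% in siSFSWAP and at 3.13% to 7.91% in siNT (adjusted p 0.856 and 0.817). Of all 42 tested exon events of the 9 genes, 14 had groups that did not overlap (33.3%), where 23.2% of all tested exon events did not, and several of the 14 share junction reads.

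**Figure D3:**
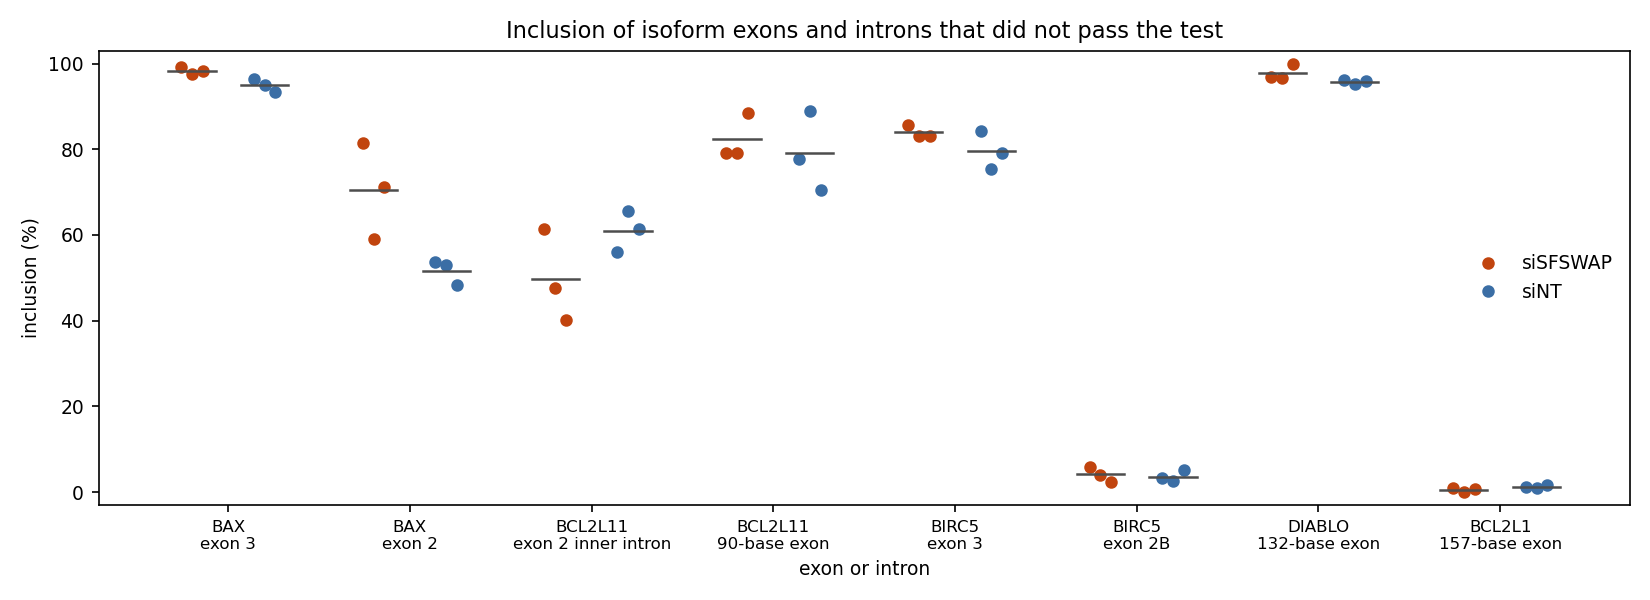
Inclusion (percent, vertical axis) of 8 isoform exons and introns that did not pass the test, in the 3 siSFSWAP (orange, left) and 3 siNT (blue, right) libraries of each; points are libraries and grey lines group means. The groups overlap or lie close together in most. The widest gap is that of BAX exon 2 as read in forms that skip exon 3, with means of 70.5% in siSFSWAP and 51.7% in siNT. Read against transcripts that skip exon 2 alone, exon 2 was included at 92.2% to 98.7% in siSFSWAP and 92.6% to 96.2% in siNT.

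The amount of spliced RNA was read as junction reads of the skipped exon table, summed per gene and scaled to CPM, counts per 1e+06 of such sums. The sum took 1 event per exon, where an exon is a distinct start and end. Versions of one exon with other ends were each added, so reads that they share count more than once. The MCL1 sum holds only the 3 versions of its exon 2, so it is not independent of the exon 2 change. That of BCL2L1 holds only its 157-base exon. Such a sum depends on splicing and on the amount of RNA alike, and CPM values of different genes are not compared since they depend on the number and length of exons. In bulk RNA, fewer cells with a transcript and less RNA per cell cannot be told apart. All 9 genes were tested. MCL1 and DIABLO were lower in siSFSWAP, and 0 genes were called higher, nor was any at an unadjusted p under 0.05 in limma, where 15.6% of all 10780 tested genes were called lower and 14.7% higher. MCL1 gave 53.9, 57.6 and 59.2 CPM in siSFSWAP, against 73.1, 78.7 and 81.2 CPM in siNT, a log2 fold change of −0.45 (SE 0.09, limma adjusted p 0.00477). DIABLO gave 24.5, 26.6 and 23.1 CPM in siSFSWAP, against 30.8, 32.8 and 40.6 CPM in siNT, a log2 fold change of −0.47 (SE 0.13, limma adjusted p 0.0155). The groups did not overlap in either gene, nor in CASP2, which did not pass. The share of all tested genes without overlap was not computed. The MCL1 result passed without any one library (adjusted p at most 0.0259), and that of DIABLO was lost without siSFSWAP a, siSFSWAP c or siNT c (adjusted p 0.0505, 0.0725 and 0.0687).

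The genes with the called splicing changes did not pass in junction reads. BAX gave 145 ± 5.02 CPM in siSFSWAP and 141 ± 7.73 CPM in siNT (log2 fold change 0.04, adjusted p 0.749). FAS gave 10.8, 9.42 and 11.9 CPM in siSFSWAP, against 12.1, 6.13 and 6.69 CPM in siNT, and the groups overlapped through siNT a alone. Its log2 fold change was 0.41 (adjusted p 0.176), and 0.70 without siNT a (adjusted p 0.00167). CASP2 gave 32.5 ± 1.97 CPM in siSFSWAP and 40.0 ± 4.46 CPM in siNT, with a log2 fold change of −0.29 that did not pass (adjusted p 0.0662, and 0.0172 without siNT a). BCL2L1 gave 3.71, 3.33 and 3.19 CPM in siSFSWAP, against 3.42, 2.63 and 1.75 CPM in siNT, and passed only when siNT a was left out (adjusted p 0.21 with it and 0.0403 without it). BCL2L11, BIRC5 and CASP9 had log2 fold changes of 0.11, −0.02 and 0.07 (adjusted p 0.562, 0.841 and 0.834).

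**Figure D4:**
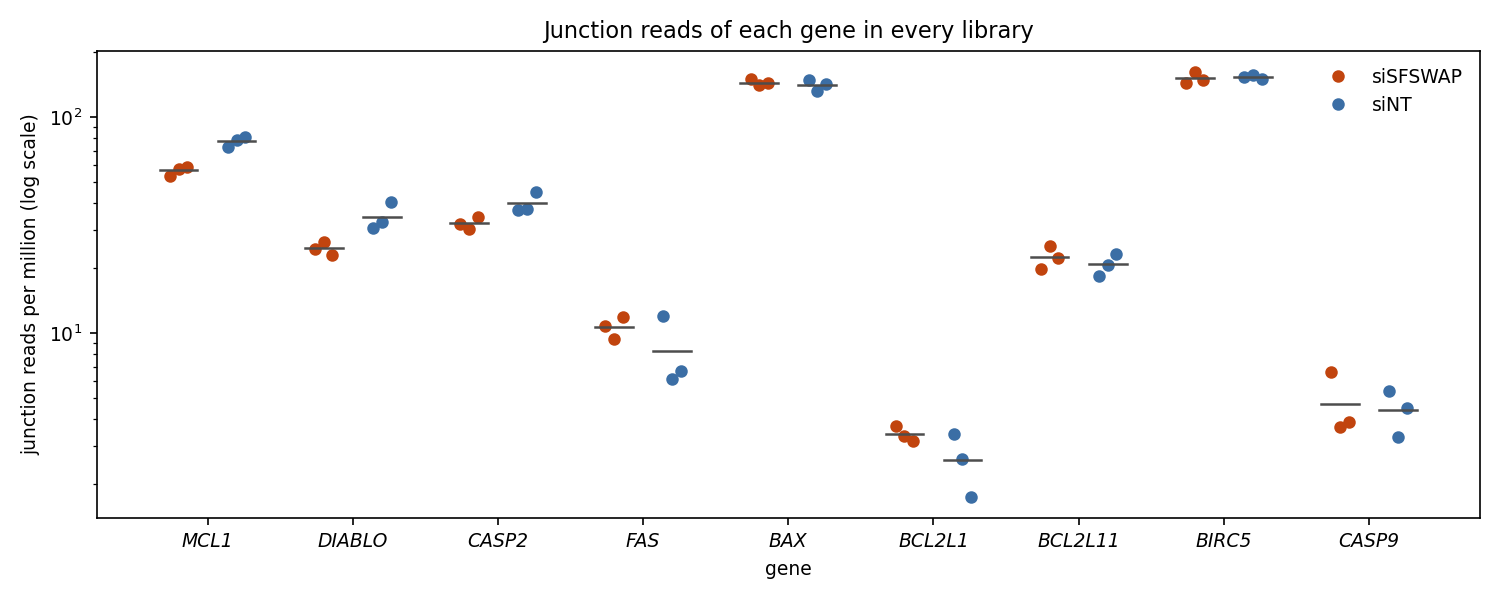
Junction reads in CPM (vertical axis, log scale) of the 9 genes in the 3 siSFSWAP (orange, left) and 3 siNT (blue, right) libraries of each; points are libraries and grey lines group means. MCL1 and DIABLO lie lower in all siSFSWAP libraries, at 53.9 to 59.2 and 23.1 to 26.6 CPM, than in siNT, at 73.1 to 81.2 and 30.8 to 40.6 CPM.

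A wider list of 49 apoptosis genes served to show how the rest of the pathway behaved. Of 48 tested introns in 14 of these genes, 2 in one gene were called lower, where 1.61% of all tested introns were. Called higher were 0 of the 48, where only 15 of all 10155 tested introns were. At an unadjusted p under 0.05, 0 were higher in the quasi-binomial test and 2 with limma on log2 odds. The median change of the 48 was −0.26 points, beside −0.52 points over all tested introns. Both introns called lower lie in PIDD1, which encodes the scaffold of the complex that activates CASP2. Intron 15 of PIDD1 (249 bases) was retained at 10.9%, 20.7% and 14.3% in siSFSWAP and 41.8%, 47.4% and 69.7% in siNT, a change of −37.7 points (adjusted p 0.0102). The counts are small: reads across its exon-intron borders numbered 12, 12 and 9 in siSFSWAP and 23, 18 and 23 in siNT. Its spliced reads numbered 49, 23 and 27 in siSFSWAP and 16, 10 and 5 in siNT. Intron 7 (340 bases) was retained at 3.13%, 5.98% and 6.25% in siSFSWAP and 14.1%, 40.5% and 33.3% in siNT, a change of −24.2 points (adjusted p 0.0206). Border reads of intron 7 numbered 4, 7 and 10 in siSFSWAP and 19, 30 and 14 in siNT. Spliced reads numbered 62, 55 and 75 in siSFSWAP and 58, 22 and 14 in siNT. The groups did not overlap in either intron, and junction reads of PIDD1 were higher in siSFSWAP, at 15.99 ± 2.61 CPM, than in siNT, at 7.47 ± 1.49 CPM (log2 fold change 1.05, adjusted p 0.00163). The number of called introns was between 0 and 2 when one library was left out.

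Of 192 tested exon events in 31 genes of the wider list 0 were called, by the quasi-binomial test or by limma on log2 odds, with a median change of 0.54 points beside 0.30 points over all tested exon events. By the adjusted p alone 3 were higher, where 3.25% of all tested exon events were. By the same measure 0 were lower, where 2.17% of all were. At an unadjusted p under 0.05, 33 were higher and 3 lower. The share of all tested exon events at that p was not computed, so these counts are not read as particular to the list. The 3 past the adjusted p are named although they were not called, a choice made after their values were seen. A pair of them are forms of exon 6 of BCL2L12, a relative of the BCL2 family, which changed by 13.5 points (adjusted p 0.0306) and 18.4 points (adjusted p 0.0234). Both forms share the same skipping reads, and the second, of 370 bases, is not in the annotation used. The third is an unannotated exon of ENDOG, a mitochondrial nuclease, included at 17.7%, 17.0% and 17.0% in siSFSWAP and 6.47%, 7.94% and 4.42% in siNT (adjusted p 0.0109).

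In junction reads, 4 of 36 tested genes of the wider list were higher and 8 lower, where 14.7% of all tested genes were higher and 15.6% lower. The largest rise was in BMF, a BH3-only gene, with 3.17, 2.92 and 3.08 CPM in siSFSWAP and 1.15, 0.974 and 0.603 CPM in siNT (log2 fold change 1.36, adjusted p 0.00124). BMF rested on 11 to 89 reads a library. The 0.5 CPM added before taking log2 makes fold changes of such low values smaller. Besides PIDD1, CASP6, an executioner caspase gene, and BID, a BH3-only gene that links death receptors to mitochondria, were higher, with log2 fold changes of 0.68 (adjusted p 0.0189) and 0.36 (adjusted p 0.0235). The caspase genes CASP8 and CASP4 were lower, with log2 fold changes of −0.50 and −0.90 (adjusted p 0.0208 and 0.0169), and CASP4 rested on 12 to 69 reads a library. TNFRSF10A, a death receptor for the ligand TRAIL, was lower at −0.67 (adjusted p 0.00245), as was the BH3-only gene PMAIP1 at −0.42 (adjusted p 0.0101). CYCS, which encodes cytochrome c, and HTRA2, which like DIABLO acts against inhibitors of apoptosis, were lower at −0.46 and −0.48 (adjusted p 0.00898 and 0.0259), and DFFA, the inhibitor of the apoptotic nuclease, at −0.27 (adjusted p 0.0416). The number of these genes that passed was between 5 and 16 when one library was left out, lowest without siSFSWAP b.

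Across the tables, the libraries held 2767079 to 4450930 retained intron junction reads in siSFSWAP and 2827762 to 7465949 in siNT, and 19515010 to 31980079 skipped exon junction reads in siSFSWAP and 20820210 to 55274283 in siNT. Library siNT a was the deepest and stood apart from its group: its median tested intron was retained at 6.98%, within the 6.47% to 7.39% of the siSFSWAP libraries and below the 9.27% and 9.68% of the other siNT libraries. Without it, 9 exon events and 3 introns of the 9 genes passed the adjusted p, against 5 and 1 with it. Over the whole tables, introns called lower numbered 497 without it and 163 with it, and exon events called higher 1520 without it and 692 with it. Its part in the results was not tested. SFSWAP itself gave 30.2 ± 7.70 CPM in siSFSWAP and 82.1 ± 3.78 CPM in siNT (log2 fold change −1.46, adjusted p 0.000353). Of markers of the line, VIM was read at 221 to 373 CPM, KRT8 at 82.8 to 117 CPM and KRT18 at 38.7 to 62.6 CPM over the 6 libraries. COL1A1, a marker of another cell type, was read at 0.371 to 0.514 CPM. PAX2, NEFM, INA, PTPRC, LYZ, ALB and PECAM1 were not listed, which is no zero since the tables list only genes with a splicing event.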

How the data were processed

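RNA-seq libraries of 3 siSFSWAP and 3 siNT cultures, labelled as biological replicates, were trimmed by the authors with cutadapt 1.9.1, aligned with STAR 2.7 to GRCh38, and passed to rMATS, whose deposited tables list unnormalised junction read counts of each library for retained introns and skipped exons, with effective lengths. The deposited inclusion levels, p-values, FDR and inclusion differences hold the authors' own comparison and were not used. Groups are numbered, not named, in the tables; group 1 was taken as siNT from the study's definition of the inclusion difference, and SFSWAP reads were checked.

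Inclusion was recomputed from the counts. The test of each event was a quasi-binomial F test, two-sided (limma 3.58.1 squeezeVar with a depth trend, dispersion floored at 1, R 4.3.3), adjusted by Benjamini-Hochberg over all 10155 introns or 48100 exon events. Gene sums were tested with limma-trend on log2 CPM plus 0.5, for genes that averaged 20 or more reads, with a two-sided adjusted p. Both tests were checked on simulated data. Among simulated events of intermediate inclusion, the adjusted p found 40% of introns and 27% of exon events whose inclusion read share moved by 20 points. For moves of 35 points it found 94% and 79%. An event that did not pass may therefore still have changed. Called events, the best-read event of each known isoform and the event with the smallest adjusted p per gene and table were described by library; wider genes were named where an event was called or their reads passed. Alternatives covered filters, test, effective lengths, dispersion, scaling and each library left out. Positions and exon numbers came from GENCODE release 44, using each gene's MANE transcript, and sequences from the GRCh38 genome with pysam 0.24.0. The members and gene lists were chosen with earlier results of these data known. Some listed genes are not reported here.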

Additional observations from a re-analysis of the deposited data

How the results depend on the processing

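The call of BAX intron 5 was lost, leaving 0 introns called among the 9 genes, with no filter on low counts (adjusted p 0.0518), with limma on log2 odds (adjusted p 0.181) and with inclusion from counts without effective lengths (−16.4 points). The call of FAS exon 6 was lost, leaving 0 exon events called, with no filter (adjusted p 0.108) and with limma on log2 odds (adjusted p 0.123). At an unadjusted p under 0.05, limma gave 2 introns and 3 exon events of the 9 genes, and the fit with no filter 1 and 13. With one library left out, called introns of the 9 genes numbered 0 to 1 and called exon events 0 to 1. The number of the 9 genes whose junction reads passed was then 1 to 5, with 5 without siNT a. Of the wider list, 1 intron was called with at least 50 reads per library, 1 with no filter and 0 with limma, 0 to 2 without one library, and 5 to 16 genes passed in junction reads. Over the whole tables, limma on log2 odds called 0 introns lower (340 at an unadjusted p under 0.05 with a fall of 20 points or more) and 181 exon events higher and 96 lower, and with no filter 39 introns were lower and 80 exon events higher and 124 lower, against 163, 692 and 315 as reported. Without one library, introns called lower numbered 14 to 497 and exon events called higher 188 to 1520. BAX intron 5 and exon 3, FAS exon 6, MCL1 exon 2, BIRC5 exon 3 and both CASP2 exons kept their direction under every setting tried. Dispersion from the deviance, without a depth trend or with robust moderation was added after seeing the data and moved no call of the 9 genes at 20 points; from the deviance, the adjusted p of the 61-base CASP2 exon was 0.0507. No paired analysis was possible because the lists of each table carry no replicate numbers, so the fit with the replicate number as a block was not run. The FAS and CASP2 exons that passed rest on 24 to 165 junction reads a library.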
